A study of Mus musculus with 2 samples.

Results

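Voltage-gated calcium and sodium channels, with the subunits and accessory proteins that assemble with them, were followed through the cell classes of the mouse hippocampus. The 29 genes were taken by symbol from the list of features counted, 29 of 32285. They are 8 pore subunits of calcium channels, 4 α2δ and 4 β calcium channel subunits, 6 pore subunits and 3 β subunits of sodium channels, the sodium leak channel Nalcn, and the 3 fibroblast growth factor homologous factors Fgf12, Fgf13 and Fgf14.

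Nuclei came from the hippocampus of C57BL/6J mice 6 weeks old and were sequenced as 10x Genomics 3′ libraries. AAV-TAU mice had been given, as newborns, an adeno-associated virus that makes human tau, the wild-type 2N4R form in full length. AAV-STOP mice had been given the same kind of virus whose MAPT transcript ends at a stop codon placed early, so that no tau protein is made. In both groups the virus went into the cerebral ventricles of both sides at postnatal day 0, the hippocampi of 3 mice were pooled, and 1 library was made. Each group therefore has 1 value, no difference between the libraries could be tested, and the spread between mice is not known. The features are mouse genes, so the vector transcript was not analysed here.

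A calcium channel opens when the membrane is depolarised: the α1 pore decides its type, a β subunit in the cytoplasm brings the pore to the membrane, and an α2δ subunit outside the membrane sets how many channels stand at release sites. Sodium channel pores start and carry the action potential, with β subunits beside them and fibroblast growth factor homologous factors bound to their inner tail. In the hippocampus the P/Q and N types are known for transmitter release, the R and T types for firing at dendrites and near threshold, and the L type for signals to the nucleus.

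The AAV-TAU library held 19596 barcodes with 109428807 UMIs (molecules counted once) and a median of 5119 per barcode. The AAV-STOP library held 20265 barcodes with 130252240 UMIs and a median of 5750, and 116 barcodes occurred in both libraries. After quality limits and removal of likely doublets, 17309 AAV-TAU and 17796 AAV-STOP nuclei were clustered together, with the channel genes kept out of the genes used for clustering. Named classes took 12398 AAV-TAU and 13016 AAV-STOP nuclei, and 8 neuronal or glial clusters that met the size limit but not the naming rule are given by number. Classes of 100 or more nuclei in both libraries were used: 18 neuronal and 7 other classes, which do not overlap, and 1 pool of all inhibitory neuron-like nuclei. The classes were named by their markers, so marker levels describe them and are no check of the names. Prox1, the granule neuron transcription factor, stood in granule-like nuclei at 339.5 CPM in AAV-TAU and 332 CPM in AAV-STOP, against 127 and 135 CPM over all kept nuclei of AAV-TAU and AAV-STOP. Trp73, a Cajal-Retzius marker, stood in Cajal-Retzius-like nuclei at 444 CPM in AAV-TAU and 514 CPM in AAV-STOP, against 3.14 and 2.48 CPM over all kept nuclei of AAV-TAU and AAV-STOP. Markers of myelin-forming cells were high in oligodendrocyte-like nuclei, where Mobp stood at 1580.0 CPM in AAV-TAU and 1786 CPM in AAV-STOP, against 113 and 96.5 CPM over all kept nuclei of AAV-TAU and AAV-STOP. A numbered cluster is known by its leading genes, such as Pde11a and Cpne7 in cluster 5, Fn1 and Fras1 in cluster 7, Atp13a4 and Slc7a10 in cluster 9, Otof and Esr1 in cluster 10, Tshz2 and Rxfp1 in cluster 12, Col6a1 and Vgll3 in cluster 14, Npsr1 and Atp10b in cluster 15, and Baiap3 and Glra3 in cluster 16.

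Levels are UMIs of a gene per 1000000 UMIs of the class (CPM), each followed where shown in brackets by its exact 95% Poisson interval, which covers counting error only. An order of classes is read only where it was the same in both libraries and the intervals did not overlap. Of the 29 genes, 28 reached 100 UMIs and 20 CPM in at least 1 class, and 25 had their highest level in a neuronal class in both libraries. The class at the top was the same in both libraries for 15 genes, and for 9 of these it also stood clear of the next class in both. Those 9 were Cacna1a, Cacna1b, Cacna1e, Cacna1h, Cacna2d1, Cacna2d2, Cacna2d4, Fgf12 and Fgf13.

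**Figure D1:**
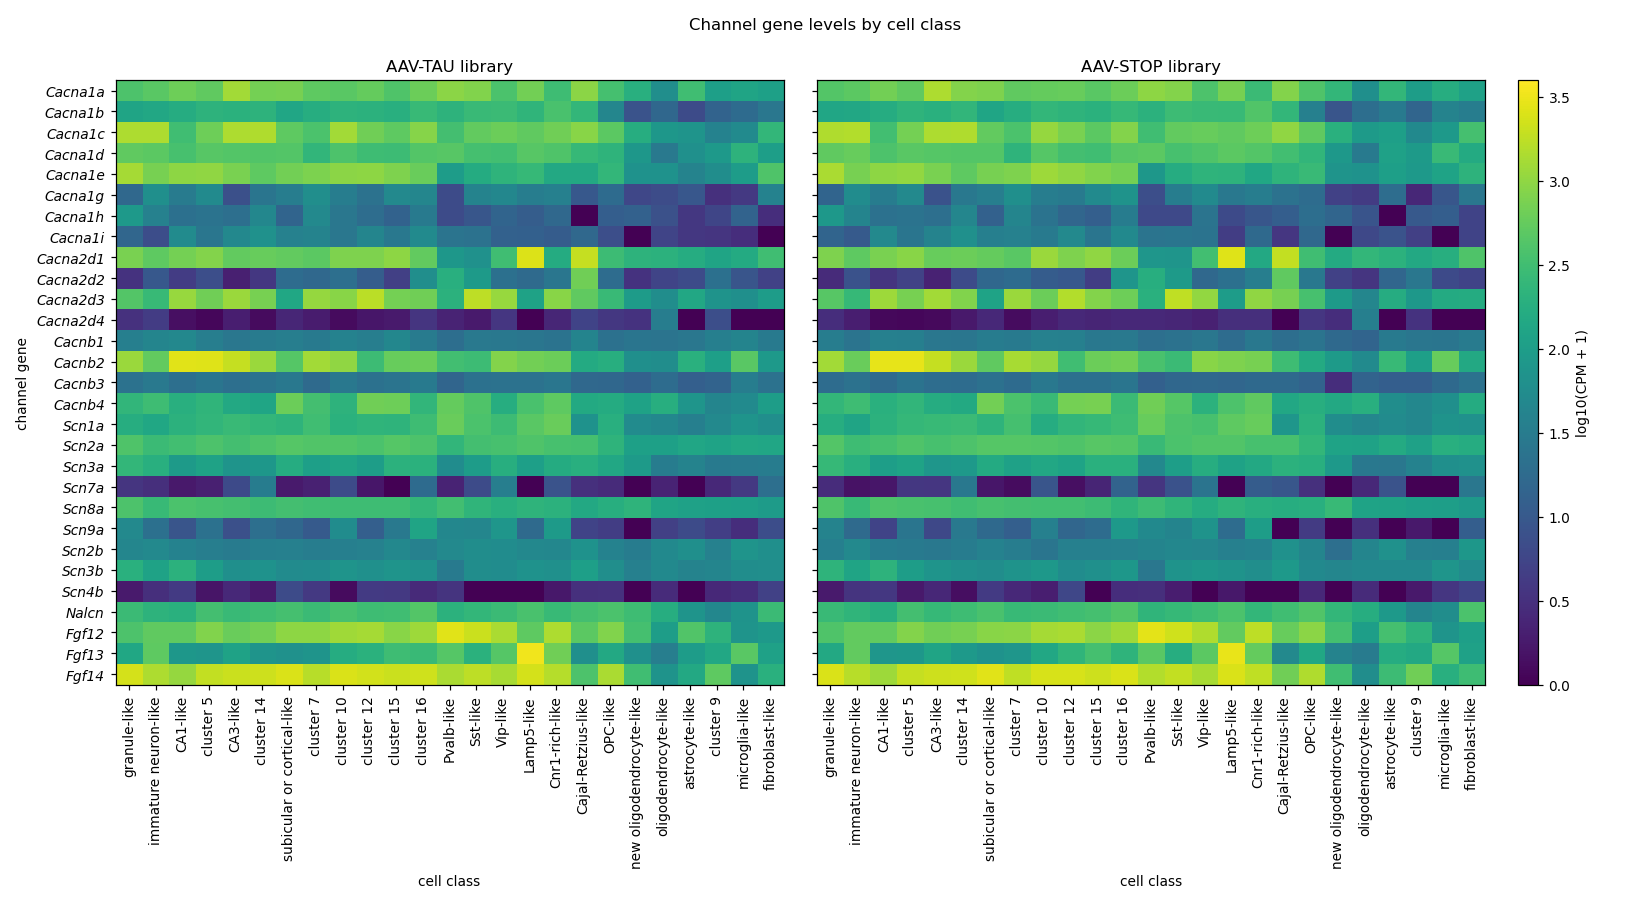
Colour gives log10(CPM + 1) of each channel gene (rows) in each cell class (columns), with the AAV-TAU library on the left and the AAV-STOP library on the right. The bright cells that stand alone in their row are Cacna2d1 and Fgf13 in Lamp5-like, Cacna2d2 in Cajal-Retzius-like and Cacna2d4 in oligodendrocyte-like nuclei, in both libraries.

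Among the pores of the P/Q, N and R types, Cacna1a, the P/Q-type pore that drives release at most hippocampal synapses, was highest in CA3-like neurons. It stood there at 1256 CPM (1231 to 1280.1) in AAV-TAU and 1417 CPM (1393 to 1442) in AAV-STOP. The next class, Pvalb-like inhibitory neurons, had 943 CPM in AAV-TAU and 958 CPM in AAV-STOP, and granule-like neurons had 391 CPM in AAV-TAU and 436 CPM in AAV-STOP. The lowest neuronal level was in Cnr1-rich-like inhibitory neurons, at 300.1 CPM (272 to 330.5) in AAV-TAU and 285 CPM (259 to 314) in AAV-STOP. These last are marked by the cannabinoid receptor gene Cnr1 and by Cck, and the N-type pore gene had the opposite order in them. Cacna1b, the N-type pore, was highest in Cnr1-rich-like neurons, at 362 CPM (331 to 395) in AAV-TAU and 422 CPM (389 to 456) in AAV-STOP. In Pvalb-like neurons Cacna1b had 209 CPM in AAV-TAU and 205 CPM in AAV-STOP, and in granule-like neurons 124 CPM in AAV-TAU and 133 CPM in AAV-STOP. So between Pvalb-like and Cnr1-rich-like inhibitory neurons the P/Q-type gene was lower and the N-type gene higher in the Cnr1-rich-like class, in both libraries and without overlap of the intervals.

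Cacna1e, the R-type pore, was highest in granule-like neurons, at 1284 CPM (1269 to 1299) in AAV-TAU and 1392 CPM (1378 to 1405) in AAV-STOP. CA1-like neurons had 964 CPM in AAV-TAU and 962 CPM in AAV-STOP, CA3-like 756 CPM in AAV-TAU and 759 CPM in AAV-STOP and subicular or cortical-like 687 CPM in AAV-TAU and 725 CPM in AAV-STOP. Of the 5 inhibitory subclasses the lowest, Pvalb-like, had 97.0 CPM (82.3 to 114) in AAV-TAU and 78.5 CPM (66.5 to 92.2) in AAV-STOP. These 4 excitatory classes thus stood above all inhibitory subclasses, none of which passed 254 CPM in AAV-TAU (Lamp5-like) or 219 CPM in AAV-STOP (Vip-like).

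The L-type pores Cacna1c and Cacna1d, which couple activity to transcription, differed from each other. Cacna1c had 1498 CPM in AAV-TAU and 1494 CPM in AAV-STOP in cluster 14, 1450.1 CPM in AAV-TAU and 1551 CPM in AAV-STOP in immature neuron-like nuclei, 1449 CPM in AAV-TAU and 1452 CPM in AAV-STOP in CA3-like and 1413 CPM in AAV-TAU and 1479.5 CPM in AAV-STOP in granule-like neurons. Those classes were close to one another, and their order changed between libraries. CA1-like neurons had far less, at 309 CPM (296 to 321) in AAV-TAU and 324 CPM (313 to 335) in AAV-STOP. Pvalb-like neurons were near the CA1-like level, with 335 CPM in AAV-TAU and 315 CPM in AAV-STOP. Cacna1d was spread more evenly over neurons, and it had 236 CPM in AAV-TAU and 219 CPM in AAV-STOP in cluster 7, the lowest neuronal level, whose interval overlapped that of Cajal-Retzius-like neurons in AAV-TAU. Its level in granule-like neurons was 528 CPM (519 to 538) in AAV-TAU and 533 CPM (525 to 542) in AAV-STOP.

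T-type pores, which open near the resting potential, had under 100 CPM in every class. Cacna1h was highest in granule-like neurons, at 85.6 CPM (81.8 to 89.5) in AAV-TAU and 83.2 CPM (79.9 to 86.5) in AAV-STOP. Cluster 7 followed in AAV-TAU with 48.9 CPM and cluster 14 in AAV-STOP with 43.3 CPM. Cacna1i had its highest level in cluster 14, at 64.3 CPM (56.3 to 73.3) in AAV-TAU and 63.5 CPM (54.3 to 73.8) in AAV-STOP, where it overlapped CA1-like neurons with 54.0 CPM in AAV-TAU and 48.5 CPM in AAV-STOP. In granule-like neurons Cacna1i had only 14.3 CPM in AAV-TAU and 13.7 CPM in AAV-STOP, so the top class of Cacna1h was not a high class of Cacna1i. Cacna1g reached 59.8 CPM in AAV-TAU and 60.8 CPM in AAV-STOP in cluster 7 and 43.8 CPM in AAV-TAU and 68.9 CPM in AAV-STOP in cluster 16, and CA3-like neurons had 6.63 CPM in AAV-TAU and 7.06 CPM in AAV-STOP.

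The α2δ genes had different top classes, but some classes held several of them. Cacna2d1 and Cacna2d2, whose products bind gabapentin, and Cacna2d3, known from hearing and pain, are neuronal genes, while Cacna2d4 is known from photoreceptors. Starts of 3 of them are shown with that of the sodium channel gene Scn1a, because the 3 genes had different top classes among neurons and Scn1a is a further gene with a marked inhibitory pattern. Each is 300 bases of the GRCm38.p6 RefSeq annotation, 250 before the start and 50 after it, on the gene's strand: Cacna2d1 at chr5:15934441-15934740 (plus strand), Cacna2d2 at chr9:107399630-107399929 (plus), Cacna2d3 at chr14:29721815-29722114 (minus) and Scn1a at chr2:66440788-66441087 (minus). Capitals mark GGGCGG on either strand (CCGCCC where it lies on the other), the letters of a GC box; marks that overlap or touch run together.
Cacna2d1: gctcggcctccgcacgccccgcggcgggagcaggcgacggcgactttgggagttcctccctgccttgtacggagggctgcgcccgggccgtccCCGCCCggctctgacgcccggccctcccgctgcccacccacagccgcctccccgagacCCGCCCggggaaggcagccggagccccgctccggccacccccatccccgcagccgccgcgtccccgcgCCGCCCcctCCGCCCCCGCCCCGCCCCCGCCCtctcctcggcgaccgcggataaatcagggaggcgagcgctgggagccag
Cacna2d2: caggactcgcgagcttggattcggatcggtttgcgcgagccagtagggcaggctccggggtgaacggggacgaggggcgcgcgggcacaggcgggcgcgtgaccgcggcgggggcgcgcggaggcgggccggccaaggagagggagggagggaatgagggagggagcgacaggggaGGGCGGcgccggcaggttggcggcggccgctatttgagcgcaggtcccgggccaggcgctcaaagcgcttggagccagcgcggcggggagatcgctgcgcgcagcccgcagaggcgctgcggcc
Cacna2d3: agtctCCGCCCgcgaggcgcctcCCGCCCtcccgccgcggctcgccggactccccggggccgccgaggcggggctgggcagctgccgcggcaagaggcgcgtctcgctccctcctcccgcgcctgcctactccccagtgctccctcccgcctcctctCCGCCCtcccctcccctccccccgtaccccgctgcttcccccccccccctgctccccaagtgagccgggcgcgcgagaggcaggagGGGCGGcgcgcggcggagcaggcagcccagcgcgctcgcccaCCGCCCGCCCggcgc
Scn1a: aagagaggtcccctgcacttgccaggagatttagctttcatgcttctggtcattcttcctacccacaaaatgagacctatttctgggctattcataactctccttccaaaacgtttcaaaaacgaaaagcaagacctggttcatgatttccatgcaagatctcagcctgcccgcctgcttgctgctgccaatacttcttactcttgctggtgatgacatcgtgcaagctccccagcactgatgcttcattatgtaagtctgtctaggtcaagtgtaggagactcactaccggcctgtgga
The Cacna2d1 window had 7 such matches, 42 CpG dinucleotides and 80.0% G or C. Cacna2d2 had 1 match, 43 CpG and 75.7% G or C, and Cacna2d3 had 6 matches, 41 CpG and 81.3% G or C. Scn1a had 0 matches, 5 CpG and 47.3% G or C. Over all 32851 windows of this length the medians were 7 CpG and 52.7% G or C, and 35.7% held the letters. The 3 α2δ starts were thus rich in CpG although the genes differed in where they were counted, and the Scn1a start was near the median window. Of the 29 channel genes 23 matched the table, with 39 windows, of which 18 held the letters.

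Cacna2d1 was highest in Lamp5-like inhibitory neurons, at 2564 CPM (2479 to 2651) in AAV-TAU and 2627 CPM (2545 to 2712) in AAV-STOP. Cajal-Retzius-like neurons came next, with 1941 CPM (1816 to 2073) in AAV-TAU and 1874 CPM (1738 to 2019) in AAV-STOP. The other inhibitory subclasses lay far lower, with 78.9 CPM in AAV-TAU and 75.9 CPM in AAV-STOP in Pvalb-like and 65.6 CPM in AAV-TAU and 74.6 CPM in AAV-STOP in Sst-like neurons, below the granule-like, CA1-like, CA3-like and subicular or cortical-like levels. Cacna2d3 was nearly the reverse among inhibitory neurons. It had 1753 CPM (1701 to 1806) in AAV-TAU and 1819.7 CPM (1762 to 1878) in AAV-STOP in Sst-like neurons, which overlapped cluster 12 in AAV-TAU, at 1669 CPM (1624 to 1714) in AAV-TAU and 1535 CPM (1487 to 1584) in AAV-STOP. In Lamp5-like neurons it had 119 CPM (101 to 139) in AAV-TAU and 97.2 CPM (81.8 to 115) in AAV-STOP. The inhibitory class that led in one gene was thus low in the other. Per kilobase of gene, the ratio of Cacna2d1 to Cacna2d3 was 40.03 (34.15 to 47.20) in AAV-TAU and 50.20 (42.43 to 59.82) in AAV-STOP in Lamp5-like neurons. Whether UMIs of these 3′ libraries scale with gene length was not tested. Ratios per kilobase, here and below, are therefore compared between classes and do not tell which gene of a pair has more RNA. In Sst-like neurons the same ratio was 0.07 (0.06 to 0.08) in AAV-TAU and 0.08 (0.06 to 0.09) in AAV-STOP. In granule-like neurons it was 3.17 in AAV-TAU and 3.25 in AAV-STOP, and in CA3-like neurons 0.88 in AAV-TAU and 0.83 in AAV-STOP.

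Pvalb-like neurons were low in both of these α2δ genes, with Cacna2d3 at 202 CPM in AAV-TAU and 193 CPM in AAV-STOP, and high in Cacna2d2. This gene had 183 CPM (163 to 206) in AAV-TAU and 179 CPM (161 to 199) in AAV-STOP in Pvalb-like neurons. Only Cajal-Retzius-like neurons had more, at 656 CPM (584 to 734) in AAV-TAU and 533 CPM (461 to 613) in AAV-STOP. Sst-like neurons had 89.2 CPM in AAV-TAU and 90.8 CPM in AAV-STOP and cluster 16 had 59.3 CPM in AAV-TAU and 74.3 CPM in AAV-STOP, while granule-like neurons had 2.32 CPM in AAV-TAU and 1.78 CPM in AAV-STOP and CA1-like neurons 3.34 CPM in AAV-TAU and 2.52 CPM in AAV-STOP. Cacna2d2 passed the filter in 4 classes, these 4 being Cajal-Retzius-like, Pvalb-like, Sst-like and cluster 16. Among excitatory classes, subicular or cortical-like neurons were low in Cacna2d3, with 139 CPM in AAV-TAU and 119.8 CPM in AAV-STOP, against 1101 CPM in AAV-TAU and 1192 CPM in AAV-STOP in CA1-like and 1669 CPM in AAV-TAU and 1535 CPM in AAV-STOP in cluster 12. Cacna2d4 was counted above the filter in oligodendrocyte-like nuclei alone, at 33.0 CPM (28.4 to 38.2) in AAV-TAU and 34.6 CPM (29.6 to 40.1) in AAV-STOP. In no other class did it pass 6.32 CPM in AAV-TAU or 2.68 CPM in AAV-STOP.

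**Figure D2:**
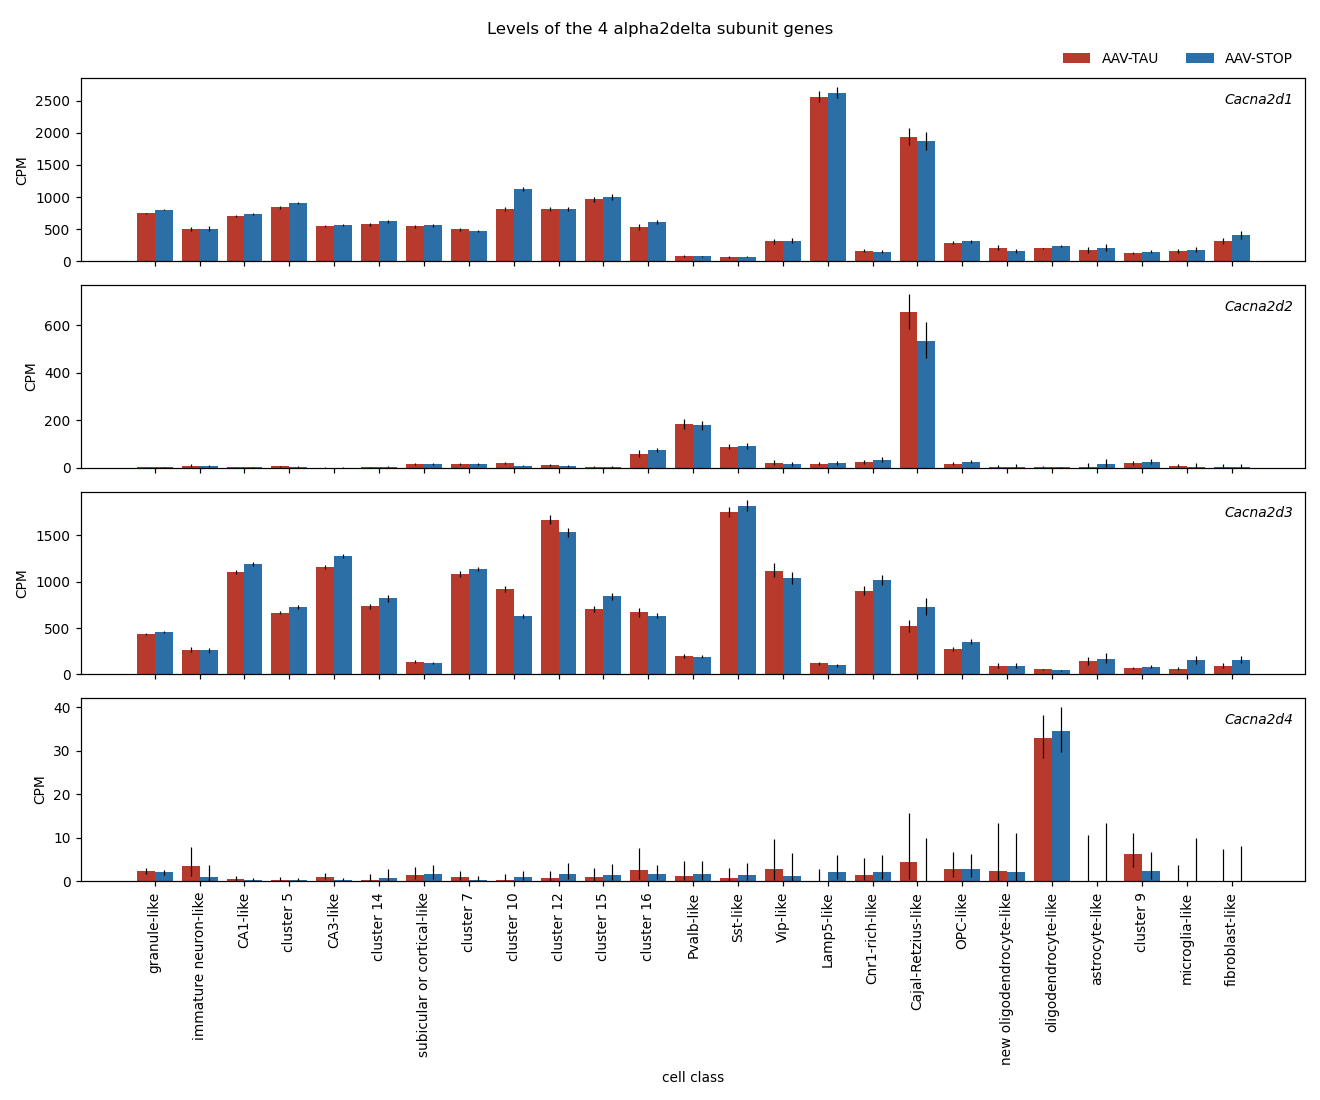
Bars give the level in CPM (linear axes from 0) of the 4 α2δ genes in each cell class, AAV-TAU left and AAV-STOP right in each pair, with exact 95% Poisson intervals as lines. Cacna2d1 peaks in Lamp5-like, Cacna2d2 in Cajal-Retzius-like, Cacna2d3 in Sst-like (overlapping cluster 12 in AAV-TAU) and Cacna2d4 in oligodendrocyte-like nuclei in both libraries.

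Of the β subunits of calcium channels, Cacnb2 was highest in CA1-like neurons, at 2704 CPM (2668 to 2741) in AAV-TAU and 2929.9 CPM (2897 to 2963) in AAV-STOP, and in cluster 5, at 2685 CPM (2646 to 2726) in AAV-TAU and 2922 CPM (2881 to 2963) in AAV-STOP. Both overlapped, and CA3-like neurons were lower with 1919 CPM in AAV-TAU and 1926 CPM in AAV-STOP. Sst-like and Pvalb-like inhibitory neurons had 295 CPM in AAV-TAU and 282 CPM in AAV-STOP and 321 CPM in AAV-TAU and 365 CPM in AAV-STOP. Cacnb4, the subunit lost in the lethargic mouse, had a different order. It reached 651 CPM in AAV-TAU and 712 CPM in AAV-STOP in cluster 12, 637 CPM in AAV-TAU and 737 CPM in AAV-STOP in cluster 15 and 608 CPM in AAV-TAU and 673 CPM in AAV-STOP in subicular or cortical-like neurons. Among inhibitory neurons Cacnb4 had 567 CPM in AAV-TAU and 658 CPM in AAV-STOP in Pvalb-like and 501 CPM in AAV-TAU and 519 CPM in AAV-STOP in Cnr1-rich-like, with intervals that overlapped in AAV-TAU, and it was lowest in Vip-like, with 176 CPM in AAV-TAU and 205 CPM in AAV-STOP. CA3-like neurons had 149 CPM in AAV-TAU and 166 CPM in AAV-STOP. The short genes Cacnb1 and Cacnb3 gave few UMIs, with at most 46.7 CPM of Cacnb1 (CA1-like, AAV-TAU) and 32.7 CPM of Cacnb3 (microglia-like, AAV-TAU, from 33 UMIs).

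The sodium channel pore Scn1a, which carries the firing of inhibitory neurons and is mutated in Dravet syndrome, was highest in Pvalb-like neurons, with 599 CPM (562 to 638) in AAV-TAU and 584 CPM (550.1 to 619) in AAV-STOP, and in Cnr1-rich-like neurons, with 597 CPM (556 to 639) in AAV-TAU and 583 CPM (545 to 623) in AAV-STOP. Those 2 overlapped. Lamp5-like neurons had 471 CPM in AAV-TAU and 510.2 CPM in AAV-STOP and Sst-like 384 CPM in AAV-TAU and 388 CPM in AAV-STOP. Granule-like neurons had 172 CPM (167 to 178) in AAV-TAU and 176 CPM (172 to 181) in AAV-STOP, and Cajal-Retzius-like neurons 67.5 CPM (45.9 to 95.8) in AAV-TAU and 75.7 CPM (50.3 to 109) in AAV-STOP. Scn2a, the pore of the axon initial segment in excitatory neurons, varied little, and its lowest neuronal level was the Pvalb-like one at 232 CPM (209 to 256) in AAV-TAU and 272 CPM (249 to 296) in AAV-STOP, whose interval overlapped that of immature neuron-like nuclei in AAV-STOP. Per kilobase of gene, Scn1a was 2.23 (1.98 to 2.52) in AAV-TAU and 1.85 (1.67 to 2.06) in AAV-STOP times Scn2a in Pvalb-like neurons. In Cnr1-rich-like neurons the ratio was 1.45 in AAV-TAU and 1.40 in AAV-STOP. In granule-like neurons it was 0.36 (0.35 to 0.37) in AAV-TAU and 0.36 (0.34 to 0.37) in AAV-STOP, in CA1-like 0.55 in AAV-TAU and 0.53 in AAV-STOP, in CA3-like 0.70 in AAV-TAU and 0.64 in AAV-STOP and in Cajal-Retzius-like 0.17 in AAV-TAU and 0.18 in AAV-STOP. The ratio was thus higher in Pvalb-like and Cnr1-rich-like neurons than in these other 4 classes, in both libraries.

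Scn3a, the pore known from the developing brain, was highest in granule-like neurons at 6 weeks, with 238 CPM (232 to 244) in AAV-TAU and 261 CPM (255 to 267) in AAV-STOP. Its interval overlapped that of Cajal-Retzius-like neurons in AAV-STOP, which had 185 CPM (148 to 229) in AAV-TAU and 206 CPM (162 to 257) in AAV-STOP. Immature neuron-like nuclei did not have more, with 185 CPM in AAV-TAU and 187 CPM in AAV-STOP, while CA3-like neurons had 71.0 CPM in AAV-TAU and 75.9 CPM in AAV-STOP. Per kilobase, Scn3a was 0.77 (0.74 to 0.79) in AAV-TAU and 0.81 (0.79 to 0.83) in AAV-STOP times Scn2a in granule-like neurons, and 0.28 in AAV-TAU and 0.28 in AAV-STOP in CA3-like neurons. Scn8a, the pore of nodes and initial segments, was highest in granule-like neurons, with 396 CPM (388 to 404) in AAV-TAU and 407 CPM (399.6 to 414) in AAV-STOP, which overlapped CA1-like neurons at 384 CPM (371 to 398) in AAV-TAU and 388 CPM (376 to 400.0) in AAV-STOP. In newly formed oligodendrocyte-like nuclei Scn8a had 217 CPM in AAV-TAU and 268 CPM in AAV-STOP, against 124 CPM in AAV-TAU and 123 CPM in AAV-STOP in oligodendrocyte-like nuclei.

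Scn9a and Scn7a are known from peripheral nerve and from sodium-sensing cells. Scn9a reached 124 CPM (104 to 146) in AAV-TAU and 84.9 CPM (75.0 to 95.7) in AAV-STOP in cluster 16, 90.8 CPM in AAV-TAU and 98.6 CPM in AAV-STOP in Cnr1-rich-like and 49.0 CPM in AAV-TAU and 40.2 CPM in AAV-STOP in granule-like neurons. The granule-like value joined unlike parts: granule-like cluster 3, of 1155 nuclei in AAV-TAU and 1262 in AAV-STOP, had 124 CPM in AAV-TAU and 114 CPM in AAV-STOP, and granule-like cluster 0, of 3005 and 3957 nuclei in AAV-TAU and AAV-STOP, had 12.8 CPM in AAV-TAU and 10.5 CPM in AAV-STOP. Granule-like neurons were therefore split by Scn9a, a gene that was kept out of the clustering. Scn7a passed the filter only in cluster 14, with 31.6 CPM (26.0 to 38.0) in AAV-TAU and 26.5 CPM (20.7 to 33.4) in AAV-STOP. Fibroblast-like nuclei had 19.9 CPM (9.56 to 36.7) in AAV-TAU and 26.1 CPM (13.5 to 45.6) in AAV-STOP, from 10 UMIs in AAV-TAU and 12 in AAV-STOP, and granule-like neurons had 2.58 CPM in AAV-TAU and 1.88 CPM in AAV-STOP.

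**Figure D3:**
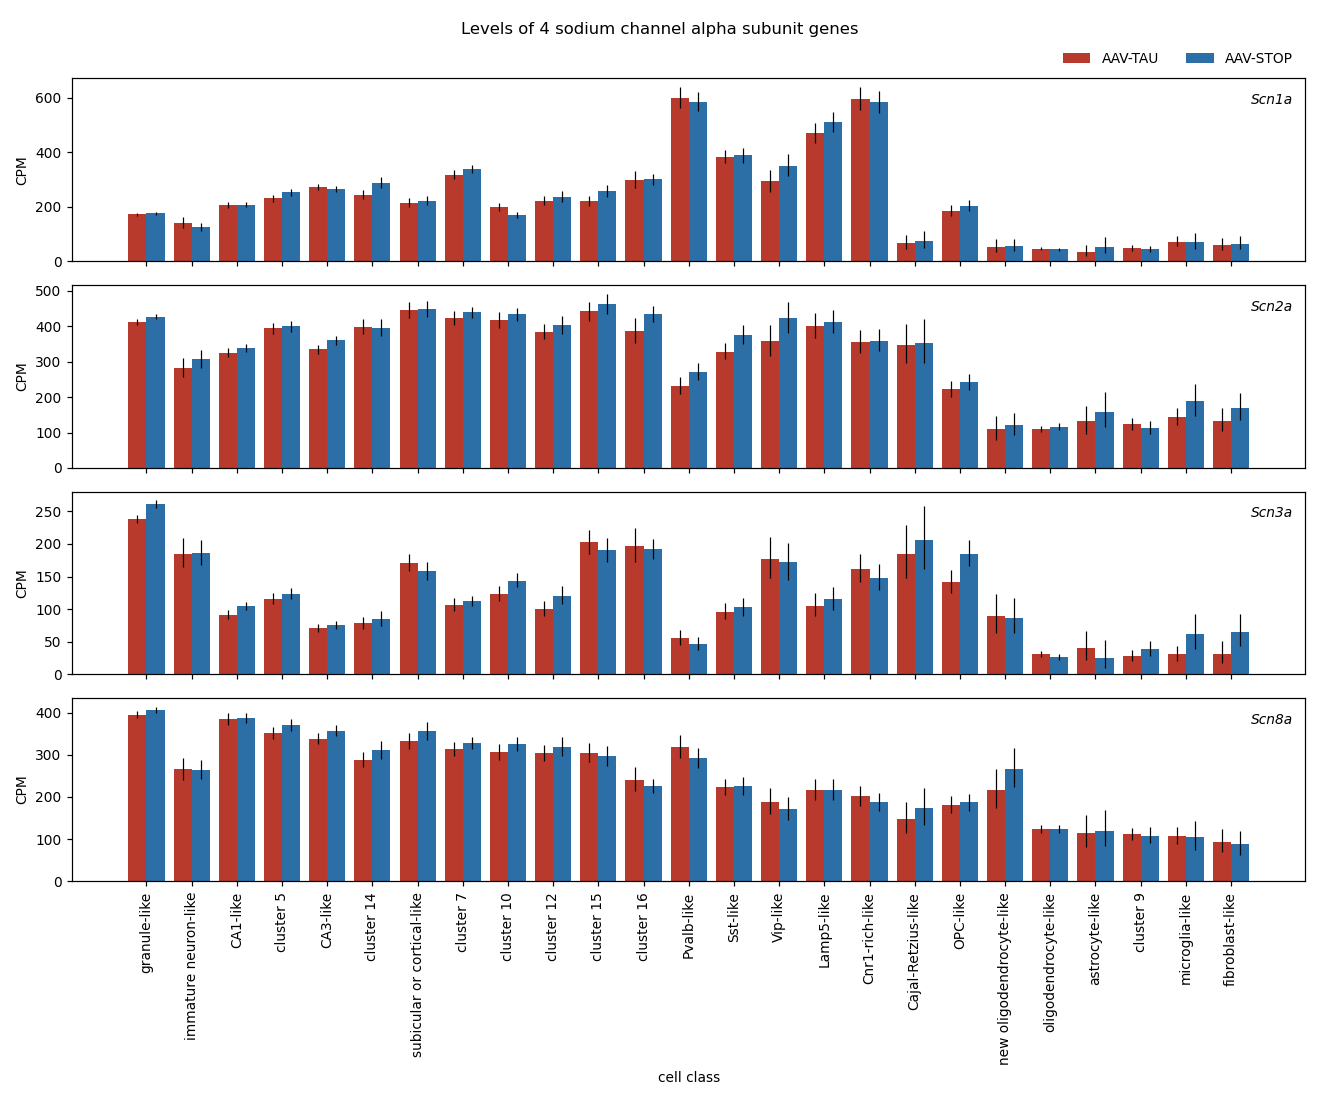
Bars give the level in CPM (linear axes from 0) of Scn1a, Scn2a, Scn3a and Scn8a in each cell class, AAV-TAU left and AAV-STOP right in each pair, with exact 95% Poisson intervals as lines. Scn1a is highest in Pvalb-like and Cnr1-rich-like inhibitory neurons, while Scn3a and Scn8a are highest in granule-like neurons.

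Of the sodium channel β subunits, Scn3b had a clear pattern, with 206 CPM (196 to 216) in AAV-TAU and 213 CPM (204 to 222) in AAV-STOP in CA1-like and 194 CPM (188 to 199.9) in AAV-TAU and 216 CPM (211 to 222) in AAV-STOP in granule-like neurons, whose intervals overlapped. All other classes had at most 118 CPM in AAV-TAU and 124 CPM in AAV-STOP, both in immature neuron-like nuclei. Pvalb-like neurons had 28.2 CPM in AAV-TAU and 26.2 CPM in AAV-STOP. Scn2b lay between 30.9 and 72.4 CPM in AAV-TAU and between 19.8 and 78.3 CPM in AAV-STOP in every class, neuronal or not. Scn4b, known from striatal and Purkinje neurons, passed the filter in no class: it had 145 UMIs in AAV-TAU and 145 in AAV-STOP over the 25 classes that do not overlap, with at most 5.63 CPM in AAV-TAU and 4.78 CPM in AAV-STOP. Nalcn, the leak channel that holds the resting potential, was as high in a glial class as in any neuron. It had 427 CPM (391 to 467) in AAV-TAU and 413 CPM (390.3 to 436) in AAV-STOP in cluster 16. Oligodendrocyte precursor-like nuclei had 377 CPM (349 to 407) in AAV-TAU and 419 CPM (390.2 to 449) in AAV-STOP, and CA1-like neurons, the neuronal class with least, had 189.7 CPM in AAV-TAU and 179 CPM in AAV-STOP, overlapping Pvalb-like neurons in AAV-TAU.

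The homologous factors Fgf12, Fgf13 and Fgf14 bind sodium channels from inside and shift their inactivation. Fgf14, mutated in a spinocerebellar ataxia, had 1068 CPM in AAV-TAU and 1175 CPM in AAV-STOP in CA1-like and 2503 CPM in AAV-TAU and 2779 CPM in AAV-STOP in subicular or cortical-like neurons, and less than both in Cajal-Retzius-like neurons, at 394 CPM in AAV-TAU and 660.0 CPM in AAV-STOP. Fgf12 was highest in Pvalb-like neurons, at 2715 CPM (2634 to 2797) in AAV-TAU and 2835 CPM (2760.0 to 2912) in AAV-STOP, followed by Sst-like, at 2053 CPM (1997 to 2111) in AAV-TAU and 2157 CPM (2094 to 2220.5) in AAV-STOP. Lamp5-like neurons were low in Fgf12, with 506 CPM in AAV-TAU and 540.5 CPM in AAV-STOP, and granule-like neurons had 392 CPM in AAV-TAU and 401 CPM in AAV-STOP. Fgf13 was highest in Lamp5-like neurons, at 3355 CPM (3258 to 3454) in AAV-TAU and 3060.3 CPM (2971 to 3152) in AAV-STOP. Cnr1-rich-like neurons came next with 666 CPM in AAV-TAU and 561 CPM in AAV-STOP, while CA1-like neurons had 78.8 CPM in AAV-TAU and 75.7 CPM in AAV-STOP. Immature neuron-like nuclei had 502 CPM in AAV-TAU and 550.3 CPM in AAV-STOP of Fgf13, against 137 CPM in AAV-TAU and 147 CPM in AAV-STOP in granule-like neurons. Per kilobase, Fgf12 was 2.28 (2.16 to 2.40) in AAV-TAU and 2.18 (2.09 to 2.29) in AAV-STOP times Fgf14 in Pvalb-like neurons and 0.26 in AAV-TAU and 0.26 in AAV-STOP in Lamp5-like neurons. Fgf13 was 2.00 (1.91 to 2.09) in AAV-TAU and 1.70 (1.62 to 1.77) in AAV-STOP times Fgf14 in Lamp5-like neurons and 0.04 in AAV-TAU and 0.03 in AAV-STOP in subicular or cortical-like neurons. The ratio of Fgf12 to Fgf14 was thus higher in Pvalb-like than in Lamp5-like neurons. That of Fgf13 to Fgf14 was higher in Lamp5-like than in subicular or cortical-like neurons. Lamp5-like neurons were the top class of both Cacna2d1 and Fgf13, and Pvalb-like neurons held the top of Fgf12, the second place of Cacna2d2 and a shared top of Scn1a.

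Outside neurons, levels have to be read beside RNA from neurons that is free in the preparation. A channel gene was therefore set, as a percent of its level over all kept nuclei of the library, beside 8 neuronal marker genes in the same class. In oligodendrocyte precursor-like nuclei these markers ranged from 11.3% to 161% in AAV-TAU and 8.98% to 137% in AAV-STOP, with Gad1 at the top and the neuronal splicing factor Rbfox3 at 11.3% in AAV-TAU and 8.98% in AAV-STOP. Nalcn there stood at 140.1% in AAV-TAU and 156% in AAV-STOP, Fgf12 at 117% in AAV-TAU and 125% in AAV-STOP and Scn3a at 104% in AAV-TAU and 119.8% in AAV-STOP. None of the 29 genes lay above all 8 markers in both libraries in this class, although the 7 markers other than Gad1 reached at most 67.8% in AAV-TAU and 45.6% in AAV-STOP. In CPM the same class had 1393 CPM in AAV-TAU and 1468 CPM in AAV-STOP of Fgf14 and 493 CPM in AAV-TAU and 518 CPM in AAV-STOP of Cacna1c, against 69.0 CPM in AAV-TAU and 57.9 CPM in AAV-STOP and 79.5 CPM in AAV-TAU and 89.9 CPM in AAV-STOP in oligodendrocyte-like nuclei, which come from the same preparation.

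By value, 17.0 combinations of gene and class stood above all 8 markers in both libraries, and in 6.0 of these the lower bound of the 95% Poisson interval did so too. Cacna2d4 stood at 1017% in AAV-TAU and 1239% in AAV-STOP of its library level in oligodendrocyte-like nuclei, where the markers ranged from 15.1% to 82.4% in AAV-TAU and 9.13% to 61.8% in AAV-STOP. Fgf13 stood at 234% in AAV-TAU and 222% in AAV-STOP in microglia-like nuclei, with 473 CPM (432 to 518) in AAV-TAU and 448 CPM (383 to 522) in AAV-STOP, while the markers ranged from 22.2% to 120.5% in AAV-TAU and 18.0% to 129% in AAV-STOP. Scn7a stood at 482% in AAV-TAU and 765% in AAV-STOP in fibroblast-like nuclei, from the few UMIs given above. Nearer to the markers, with the lower bound still above them, were Scn2b in oligodendrocyte-like nuclei at 119.9% in AAV-TAU and 123% in AAV-STOP, Nalcn in newly formed oligodendrocyte-like nuclei at 112% in AAV-TAU and 89.7% in AAV-STOP and Cacnb1 in cluster 9 at 106% in AAV-TAU and 84.7% in AAV-STOP. In astrocyte-like nuclei Scn2b alone stood above all 8 by value, at 142% in AAV-TAU and 189.7% in AAV-STOP, but its lower bound in AAV-TAU did not pass the highest marker, at 118%. How much of the other glial levels is free neuronal RNA was not tested. Microglia-like nuclei numbered 505 nuclei in AAV-TAU and 159 in AAV-STOP, and a further cluster with microglial markers and neuronal RNA, of 29 nuclei in AAV-TAU and 256 in AAV-STOP, was left out of the classes.

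**Figure D4:**
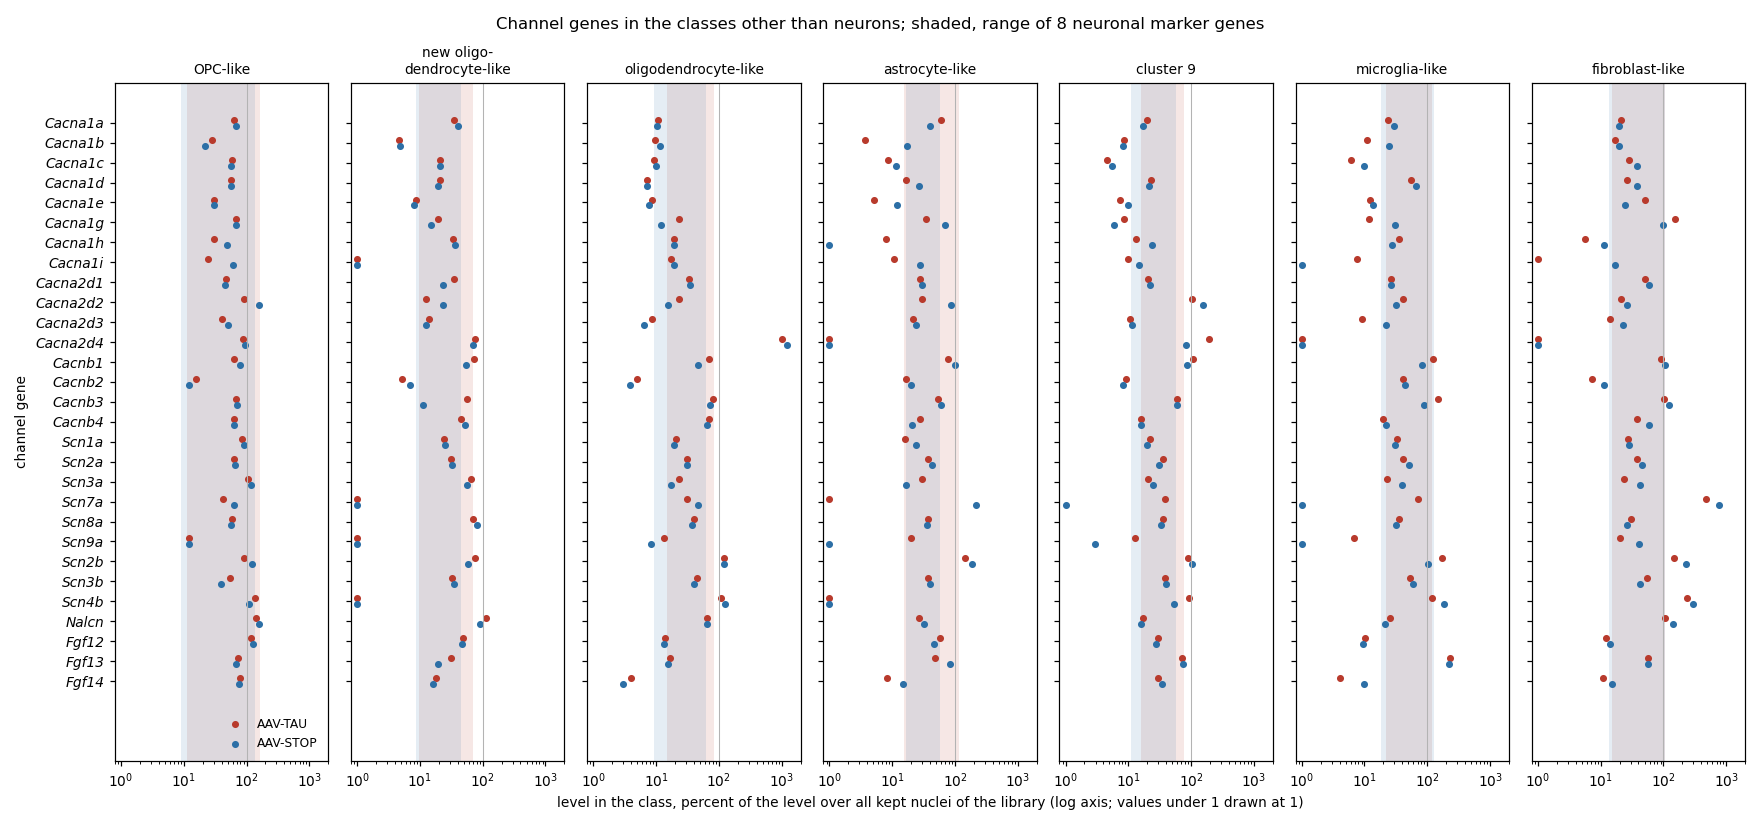
Points give the level of each channel gene in each of the 7 classes other than neurons, as a percent of its level over all kept nuclei of the same library, AAV-TAU and AAV-STOP, on a log axis with values under 1 drawn at 1. Shading spans the 8 neuronal marker genes in the same class and library, and the points far right of it are Cacna2d4 in oligodendrocyte-like, Fgf13 in microglia-like and Scn7a in fibroblast-like nuclei.

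The libraries were then compared within each class, AAV-TAU over AAV-STOP, as log2 of the ratio of CPM + 5, for genes with 100 or more UMIs and 20 or more CPM in the library with the higher level. A gene counts as different from a log2 ratio of 0.32 either way, a ratio of 5 to 4. Over the 25 classes that do not overlap, 432 pairs of channel gene and class passed the filter, 289 of them lay below 0, 11 were higher and 19 were lower past that limit. These are 66.9% below 0, 2.55% higher and 4.4% lower, beside 42.3% below 0, 8.8% higher and 3.28% lower over all tested pairs of gene and class. Of all tested pairs with a gene over 100 kb, 61.2% lay below 0, nearer to the channel genes' share. Most channel genes differed little in the large neuronal classes, while a few small or mixed classes held most of the larger differences. Because the filter asks for 100 UMIs only in the higher library, a gene can pass in a small class through that library alone. Cacna1a in astrocyte-like nuclei did so, with 110 UMIs in AAV-TAU and 66 in AAV-STOP. How far this adds to the larger differences of small classes was not tested. In 23 of 25 classes the median of the channel genes was below 0, and in 25 of 25 the share of UMIs they took together was lower in AAV-TAU, as in granule-like neurons with 1.11% of UMIs in AAV-TAU and 1.18% in AAV-STOP. The median of all tested genes over 100 kb was also below 0 in each of these classes except microglia-like nuclei (0.02). All classes come from the same 2 libraries, so they are not repeats of one another. In bulk sums of this kind, less RNA per nucleus and another mix of nuclei within a class cannot be told apart.

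In granule-like neurons 0 of 23 tested channel genes passed the limit of 0.32, while 5.08% of 7062 tested genes were higher and 0.113% lower. Their median was -0.05, against 0.05 over all tested genes and -0.03 over tested genes longer than 100 kb. The ends were Scn2b, with 44.2 CPM in AAV-TAU and 35.3 CPM in AAV-STOP (log2 0.29), and Cacna1a, with 391 CPM in AAV-TAU and 436 CPM in AAV-STOP (log2 -0.16). The count intervals of Cacna1a did not overlap, so its difference exceeded counting error, but stayed under the limit of 0.32. In CA3-like neurons 0 of 21 passed the limit of 0.32, while 4.31% of 6560 tested genes were higher and 0.64% lower, and the ends were Cacna1i at 47.5 CPM in AAV-TAU and 40.3 CPM in AAV-STOP (log2 0.21) and Scn3b at 61.8 CPM in AAV-TAU and 70.8 CPM in AAV-STOP (log2 -0.18). CA1-like neurons had 1 gene past the limit of 23 tested, where 6.4% of 6698 tested genes were higher and 0.343% lower. It was Cacnb1, with 46.7 CPM (42.0 to 51.8) in AAV-TAU and 35.9 CPM (32.3 to 39.7) in AAV-STOP (log2 0.34), which passed the limit in 3 of 9 other ways of processing, and the lowest was Scn3a at log2 -0.18. Among these ways, here and below, leaving out the filter keeps a ratio as it was, and a smaller pseudocount moves it further from 0. Neither can bring a ratio back under the limit. Subicular or cortical-like neurons had 0 of 22 past the limit, where 8.6% of 6012 tested genes were higher and 1.66% lower, with Cacna2d3 at log2 0.20 and Cacnb2 at log2 -0.23 as the ends. Immature neuron-like nuclei had 0 of 18, where 6.44% of 3819 tested genes were higher and 4.98% lower, with Scn1a at log2 0.17 and Cacna1d at log2 -0.24. The medians of these 5 classes lay between -0.06 and -0.05, beside medians between -0.02 and 0.05 over all tested genes.

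The pool of inhibitory neuron-like nuclei had 1 of 24 genes past the limit, where 5.53% of 7492 tested genes were higher and 0.681% lower. Cacnb3 had 20.2 CPM (17.3 to 23.4) in AAV-TAU and 13.8 CPM (11.5 to 16.4) in AAV-STOP there (log2 0.42), and Cacnb2 was the lowest, with 512 CPM in AAV-TAU and 589 CPM in AAV-STOP (log2 -0.20). Pvalb-like neurons had 0 of 17 past the limit (4.98% of 3451 genes higher and 3.94% lower), with Cacna1e at 97.0 CPM in AAV-TAU and 78.5 CPM in AAV-STOP (log2 0.29) and Scn2a at 232 CPM in AAV-TAU and 272 CPM in AAV-STOP (log2 -0.23) as the ends. Sst-like neurons had 0 of 21 (8.59% of 4540 higher and 2.56% lower), between Scn2b at log2 0.30 and Scn3b at log2 -0.27. Lamp5-like neurons had 0 of 18 (7.66% of 2859 higher and 3.43% lower), between Cacna2d3 at log2 0.28 and Cacna1b at log2 -0.23. Cnr1-rich-like neurons had 0 of 18 (7.73% of 2834 higher and 5.5% lower), between Fgf13 at log2 0.24 and Fgf12 at log2 -0.29. Vip-like neurons had 1 of 17 (6.8% of 1530 higher and 7.97% lower), Cacna1d with 321 CPM (282 to 365) in AAV-TAU and 411 CPM (369.6 to 457) in AAV-STOP (log2 -0.35). Scn8a was the highest gene in Vip-like neurons, at log2 0.14. Of the tested genes over 100 kb in Vip-like neurons, 2.49% were higher and 9.19% lower. Among the 5 inhibitory subclasses, then, 1 gene in 1 subclass passed the limit.

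Cajal-Retzius-like neurons, 172 nuclei in AAV-TAU and 123 in AAV-STOP, had 0 of 12 genes higher and 4 lower, where 12.7% of 624 tested genes were higher and 13.5% lower. Of the tested genes over 100 kb in this class, 3.98% were higher and 18.03% lower. Cacnb2 had 157 CPM (123 to 198) in AAV-TAU and 306 CPM (252 to 367) in AAV-STOP there (log2 -0.94). Fgf14 had 394 CPM (339 to 456) in AAV-TAU and 660.0 CPM (579.8 to 748) in AAV-STOP (log2 -0.74). Both pairs of intervals stood apart. Cacna2d3 had 521 CPM (457 to 591) in AAV-TAU and 728 CPM (643 to 819.9) in AAV-STOP (log2 -0.48), and Cacna1d had 255 CPM (211 to 305) in AAV-TAU and 322 CPM (267 to 385) in AAV-STOP (log2 -0.33), the last with overlapping intervals and past the limit in 5 of 10 other ways of processing. Cacna2d2, whose top class this was, had log2 0.30, and Cacna2d1 had log2 0.05. In a second round of clustering of these nuclei, chosen after the data were seen, Fgf14 was below 0 in all 3 groups of 20 or more nuclei in both libraries and Cacna2d3 likewise, while Cacnb2 lay between -1.32 and 0.87 and Cacna1d between -0.92 and 0.05. The summed myelin genes, a sign of free RNA, were at 1285 CPM in AAV-TAU and 1031 CPM in AAV-STOP. The part of free RNA in these differences was not tested.

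Among the numbered neuronal clusters, 4 had no channel gene past the limit. They were cluster 5 (0 of 25, with 5.65% of 7043 genes higher and 0.327% lower), cluster 7 (0 of 23, with 5.85% of 6629 higher and 0.739% lower), cluster 12 (0 of 20, with 8.75% of 5212 higher and 2.71% lower) and cluster 14 (0 of 23, with 8.52% of 5519 higher and 1.81% lower). Their ends were Scn2b at log2 0.23 and Scn9a at -0.18 in cluster 5, and Cacna1h at log2 0.19 and Scn3b at -0.30 in cluster 7. In cluster 12 they were Scn3b at log2 0.18 and Scn3a at -0.25, and in cluster 14 Cacnb1 at log2 0.23 and Cacna1a at -0.27. Cluster 15 had 2 of 21 genes higher and 0 lower, where 8.21% of 4336 tested genes were higher and 2.68% lower. Cacnb1 had 45.0 CPM (36.9 to 54.4) in AAV-TAU and 26.9 CPM (20.5 to 34.6) in AAV-STOP there (log2 0.65), and Scn2b had 46.7 CPM (38.4 to 56.3) in AAV-TAU and 35.8 CPM (28.4 to 44.6) in AAV-STOP (log2 0.34), the last with overlapping intervals and past the limit in 3 of 6 other ways of processing. The lowest gene in cluster 15 was Cacna2d3, at log2 -0.26.

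Cluster 10, 501 nuclei in AAV-TAU and 565 in AAV-STOP, had 3 of 24 genes higher and 3 lower, where 18.5% of 6367 tested genes were higher and 7.21% lower. Of the tested genes over 100 kb in this cluster, 12.86% were higher and 16.45% lower. The channel genes were thus near the share of long genes past the limit in this cluster. Cacna2d1 had 811 CPM (782 to 841) in AAV-TAU and 1126 CPM (1097 to 1156) in AAV-STOP (log2 -0.47), and Cacna2d3 had 922 CPM (890.4 to 954) in AAV-TAU and 627 CPM (605 to 649.6) in AAV-STOP (log2 0.55), so these α2δ genes differed in opposite directions. Cacnb4 with 209 CPM in AAV-TAU and 273 CPM in AAV-STOP (log2 -0.38) and Cacna1e with 943 CPM in AAV-TAU and 1192 CPM in AAV-STOP (log2 -0.34) were lower. Scn9a with 55.8 CPM in AAV-TAU and 35.8 CPM in AAV-STOP (log2 0.58) and Scn2b with 34.8 CPM in AAV-TAU and 23.9 CPM in AAV-STOP (log2 0.46) were higher. The libraries gave this cluster unlike mixes of nuclei. A second round of clustering, chosen after the data were seen, made 12 groups, and 4 of them held under 10 AAV-TAU nuclei, 15 in all against 278 in AAV-STOP. Inside the 7 groups with 20 or more nuclei in both libraries, the median log2 ratio was -0.08 for Cacna2d1, -0.08 for Cacna2d3, -0.02 for Scn9a, -0.07 for Cacna1e and -0.25 for Cacnb4. Of the 6 genes only Scn2b was on the same side in all 7 groups, with a median of 0.23. For each of these 6 genes the difference of the whole cluster was thus larger than the median inside its groups.

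Cluster 16, 192 nuclei in AAV-TAU and 493 in AAV-STOP, had 1 of 22 genes higher and 1 lower, where 5.4% of 3812 tested genes were higher and 10.8% lower. Of the tested genes over 100 kb in this cluster, 4.33% were higher and 12.45% lower. Scn9a had 124 CPM in AAV-TAU and 84.9 CPM in AAV-STOP there, as above (log2 0.52), and Cacna1g had 43.8 CPM (32.6 to 57.6) in AAV-TAU and 68.9 CPM (60.0 to 78.7) in AAV-STOP (log2 -0.60). Its second round made 14 groups, of which 9 held under 10 AAV-TAU nuclei, and in the 3 groups large enough Scn9a was above 0 in 2 and Cacna1g below 0 in 3. As in cluster 10, the libraries gave this cluster unlike mixes of nuclei.

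Glial and other classes held most of the remaining differences, and also a high share of such differences among all genes. Oligodendrocyte-like nuclei had 2 of 20 channel genes higher, where 13.6% of 7353 tested genes were higher and 2.94% lower. Cacnb1 had 23.2 CPM (19.4 to 27.6) in AAV-TAU and 13.4 CPM (10.4 to 17.0) in AAV-STOP (log2 0.62) and Cacna2d3 57.2 CPM (51.1 to 63.9) in AAV-TAU and 44.5 CPM (38.9 to 50.8) in AAV-STOP (log2 0.33), the last past the limit in 7 of 10 other ways of processing, and the lowest was Cacna2d1 at log2 -0.22. The summed neuronal markers in oligodendrocyte-like nuclei were also higher in AAV-TAU, at 1730 CPM against 1430 CPM in AAV-STOP. The part of free neuronal RNA in these ratios was not tested. Oligodendrocyte precursor-like nuclei had 2 of 17 lower, where 11.5% of 3903 tested genes were higher and 4.33% lower. Of the tested genes over 100 kb in the precursor-like class, 1.84% were higher and 6.4% lower. There Cacna2d3 had 273 CPM (249 to 298) in AAV-TAU and 355 CPM (328 to 383) in AAV-STOP (log2 -0.37) and Scn3a 142 CPM (125 to 161) in AAV-TAU and 185 CPM (166 to 206) in AAV-STOP (log2 -0.37), both with intervals apart, and the highest was Scn3b at log2 0.23. In newly formed oligodendrocyte-like nuclei 1 of 5 was lower, where 5.74% of 749 tested genes were higher and 12.4% lower. That was Cacna1a, with 186 CPM (147 to 232) in AAV-TAU and 242 CPM (201 to 289) in AAV-STOP (log2 -0.37), and the highest was Nalcn at log2 0.31. Of the tested genes over 100 kb in that class, 2.3% were higher and 14.02% lower. In astrocyte-like nuclei 2 channel genes could be tested and 1 was higher, where 14.2% of 395 tested genes were higher and 17.7% lower. This was Cacna1a, with 315 CPM (259 to 380.1) in AAV-TAU and 239 CPM (185 to 304) in AAV-STOP (log2 0.39), and the other was Fgf12 at log2 0.28. Both Cacna1a differences were within counting error, since the intervals of each pair overlapped, and the newly formed oligodendrocyte-like one passed the limit in 5 of 9 other ways of processing.

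Cluster 9, whose leading genes include the astrocyte transporter gene Slc7a10, had 2 of 11 lower, where 17% of 3522 tested genes were higher and 6.47% lower. They were Cacna1e, with 57.4 CPM (47.1 to 69.2) in AAV-TAU and 88.8 CPM (73.3 to 107) in AAV-STOP (log2 -0.59), and Fgf14, with 514 CPM (483 to 548) in AAV-TAU and 658 CPM (615 to 704) in AAV-STOP (log2 -0.35), and the highest was Scn2a at log2 0.12. Of the tested genes over 100 kb in cluster 9, 4.82% were higher and 12.34% lower. Microglia-like nuclei had 1 of 4 lower, where 23.6% of 1536 tested genes were higher and 4.56% lower: Cacna1d, with 211 CPM (184 to 242) in AAV-TAU and 274 CPM (223 to 332) in AAV-STOP (log2 -0.37), whose intervals overlapped and which passed the limit in 7 of 10 other ways of processing. Fgf13, the channel gene above the neuronal markers in that class, had log2 0.08. Of the tested genes over 100 kb in microglia-like nuclei, 8.7% were higher and 8.5% lower. Fibroblast-like nuclei had 1 of 5 higher and 4 lower, where 12.3% of 883 tested genes were higher and 18.7% lower. Of the tested genes over 100 kb in this class, 6.92% were higher and 25.42% lower. Cacna1e had 399 CPM (345 to 458) in AAV-TAU and 213 CPM (173 to 259.6) in AAV-STOP (log2 0.89), from 200 UMIs in AAV-TAU and 98 in AAV-STOP. Lower were Fgf14 with 193 CPM in AAV-TAU and 298 CPM in AAV-STOP (log2 -0.61), Cacna1c with 243 CPM in AAV-TAU and 348 CPM in AAV-STOP (log2 -0.51), Nalcn with 285 CPM in AAV-TAU and 383 CPM in AAV-STOP (log2 -0.42) and Cacna2d1 with 311 CPM in AAV-TAU and 407 CPM in AAV-STOP (log2 -0.38).

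**Figure D5:**
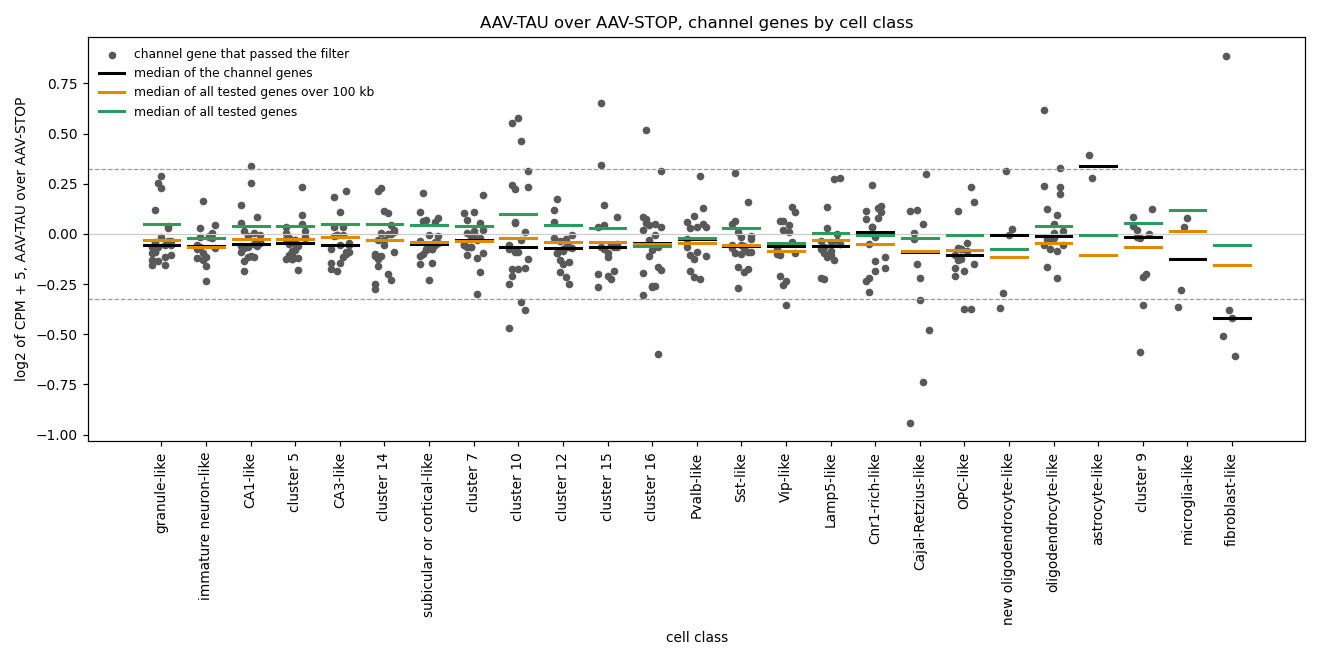
Each point is the log2 ratio of CPM + 5, AAV-TAU over AAV-STOP, of 1 channel gene that passed the filter in 1 class, with bars for the median of the channel genes, of all tested genes over 100 kb and of all tested genes, and dashed lines at log2 ratios of 0.32 and -0.32. Most points of the neuronal classes on the left lie between the dashed lines, and the points far outside them are in cluster 9, cluster 10, cluster 15, cluster 16, Cajal-Retzius-like, oligodendrocyte-like and fibroblast-like nuclei.

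Channel genes are long, and long genes had lower ratios than the rest. Of the 29 genes, 22 span over 100 kb, and their median length is 159 kb. The 22 long genes were above 0 in 112 of 378 pairs with a class (29.6%), and the 7 shorter ones in 31 of 54 (57.4%). Below 0 were 70.4% of the long channel genes' pairs, beside 61.2% for all tested genes over 100 kb, whose share ran from 46.5% to 70.9% between classes. Scn2b was above 0 in 11 of the 13 classes where it was tested and Cacnb1 in 8 of 10. Cacna1d, by contrast, was below 0 in 21 of 22, Fgf14 in 19 of 23, Scn2a in 19 of 21 and Cacnb4 in 18 of 19, mostly by under 0.32. Other long channel genes were more evenly split: Nalcn was below 0 in 11 of 22 classes and Scn8a in 13 of 22. The classes share the same libraries, so these counts are not repeats. How often other long genes were as one-sided was not tested. Among all tested genes of the large neuronal classes those over 100 kb also had the lower medians, as given for granule-like neurons. The median mitochondrial share of UMIs, a sign of RNA quality, was higher in AAV-TAU in 26 of 26 classes, for instance 0.27% in AAV-TAU and 0.17% in AAV-STOP in granule-like neurons. The summed CPM of 8 myelin genes, a sign of free RNA, was higher in AAV-TAU in 22 of 24 classes outside the oligodendrocytes, with 714 CPM in AAV-TAU and 620.4 CPM in AAV-STOP in granule-like neurons. The part of gene length, RNA quality or free RNA in the ratios was not tested.

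Other subunits and partners of these channels, lists taken from knowledge of the channels, were read in the same way. Of 16 other subunit genes 16, and of 27 partner genes 25, were among the features. Stac, which binds L-type channels, was lower in 3 of the 4 classes where it was tested, with 109 CPM in AAV-TAU and 143 CPM in AAV-STOP in CA1-like neurons (log2 -0.37). Ryr3, a calcium release channel, was lower in Sst-like (log2 -0.35), Vip-like (log2 -0.34) and Cnr1-rich-like neurons (log2 -0.38) and higher in cluster 10 (log2 0.39), of 19 classes tested. Cacng3 had 119 CPM in AAV-TAU and 264 CPM in AAV-STOP in cluster 10 (log2 -1.11). For both genes the cluster 10 value is set beside the unlike mixes of nuclei that the libraries gave this cluster, and it was not computed inside its groups. In granule-like and CA3-like neurons no gene of either list was lower past the limit. The partners had a median of -0.03 in granule-like neurons, beside -0.05 for the channel genes. In CA1-like neurons the partners' median was -0.04, beside -0.05, and in the CA3-like class -0.01, beside -0.05.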

How the data were processed

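Single nuclei of pooled hippocampi were measured in 1 AAV-TAU and 1 AAV-STOP library. Cell Ranger and the mm10 genome gave the counts that the authors deposited, whole UMIs of each gene in each barcode. The matrix headers name Cell Ranger 8.0.1, and the submitters' processing notes name Cell Ranger 4.0 and Seurat 4.4.0. The counting of introns and strand is not given in the sources used here, and 16 of the 29 genes overlap a gene on the other strand.

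Python 3.11.15, scanpy 1.11.5 and leidenalg 0.10.2 were used. Barcodes with 500 UMIs, 300 genes and at most 5% mitochondrial UMIs were kept, and likely doublets marked with scrublet were left out: 2285 in AAV-TAU (11.66%) and 2465 in AAV-STOP (12.17%). The mitochondrial limit removed 2 AAV-TAU and 4 AAV-STOP barcodes. Nuclei were clustered jointly on 3000 variable genes, 30 components and 15 neighbours at leiden resolution 1, with 70 channel and related genes kept out. Of 35 clusters, those whose marker genes led clearly were named, "like" a cell type, and glial clusters with neuronal RNA were left out, 703 AAV-TAU and 590 AAV-STOP nuclei.

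UMIs were summed per class and library and scaled to 1000000 (CPM). Ratios use CPM + 5, and a gene counts as different from a log2 ratio of 0.32 either way, with 100 UMIs and 20 CPM in the higher library as the filter. The code was checked on simulated counts with known changes. With 1 library a group, no test was made. Named are all members past that limit in a class, otherwise the highest and the lowest. Gene positions are from GENCODE (GRCm38). The genes, lists and rules were chosen with earlier results of these data known, so no pattern here is independent support of them. Some related genes are not reported here.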

Additional observations from a re-analysis of the deposited data

Results flagged for a closer look

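For 3 genes the log2 ratio of AAV-TAU over AAV-STOP passed 0.32 in some classes and -0.32 in others. Each library is 1 value, so whether the classes differ from each other was not tested. Cacna1a, the P/Q-type pore, had a log2 ratio of 0.39 in astrocyte-like and of -0.37 in newly formed oligodendrocyte-like nuclei, both within counting error, and the newly formed oligodendrocyte-like one ran from -0.68 to -0.11 over the other ways of processing. In cluster 9, the larger cluster with astrocyte genes among its leading genes, Cacna1a did not pass the limit. Cacna1e, the R-type pore, had 0.89 in fibroblast-like nuclei, -0.59 in cluster 9 and -0.34 in cluster 10. Cacna2d3 had 0.55 in cluster 10 and 0.33 in oligodendrocyte-like nuclei, but -0.48 in Cajal-Retzius-like and -0.37 in oligodendrocyte precursor-like nuclei. Inside the groups of cluster 10 the median was -0.08 for Cacna2d3 and -0.07 for Cacna1e, nearer to 0 than the values of the whole cluster. The oligodendrocyte-like value of Cacna2d3 passed the limit in 7 of 10 other ways of processing and was 0.17 at the lowest. For Cacna2d3, oligodendrocyte-like and precursor-like nuclei, 2 stages of 1 lineage, thus lay on opposite sides. In oligodendrocyte-like nuclei, however, Cacna2d3 stood at only 8.57% in AAV-TAU and 6.32% in AAV-STOP of its library level. The lowest of the 8 neuronal markers there stood at 15.1% in AAV-TAU and 9.13% in AAV-STOP. The part of free neuronal RNA in this contrast was not tested. None of the 9 log2 ratios flagged here came from the granule-like, CA1-like or CA3-like classes.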

How the results depend on the processing

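The processing was changed in 10 ways, 1 at a time: the pseudocount, the filter, the scaling, the doublets, the clustering resolution (coarser, at 0.5, and finer, at 2), the genes allowed into clustering, the depth (nuclei thinned to 2000 UMIs, or 2000 UMIs asked of every nucleus) and the summing. The medians of the channel genes are small and moved by amounts near their own size. The granule-like median, -0.05, was -0.11 under median-of-ratios scaling. This scaling takes the median ratio of all tested genes, a log2 of 0.05 in that class, out of every ratio. Over the 10 ways the medians ran from -0.11 to -0.03 in granule-like, -0.09 to -0.01 in CA1-like, -0.1 to -0.01 in CA3-like, -0.09 to -0.03 in subicular or cortical-like, -0.08 to -0.01 in immature neuron-like, -0.09 to -0.05 in inhibitory neuron-like, -0.12 to -0.08 in oligodendrocyte precursor-like and -0.05 to 0.03 in oligodendrocyte-like nuclei, so they stayed below 0 in all 8 classes but the last. Inside the single clusters of granule-like, subicular or cortical-like, inhibitory neuron-like and oligodendrocyte-like nuclei, an alternative chosen after seeing the data, they ran from -0.07 to 0.01.

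Counts of channel genes past the limit are small and moved in 26 of 158 values. With no filter on low values there were 3 higher and 1 lower in immature neuron-like, 2 higher in CA1-like, 1 higher in CA3-like, 1 higher in subicular or cortical-like, 5 lower in oligodendrocyte precursor-like and 5 higher in oligodendrocyte-like nuclei. In CA1-like neurons, Cacnb1 was lost and 0 were higher with median-of-ratios scaling, at leiden resolution 0.5 and 2, with channel genes among the variable genes, with thinned nuclei and with the mean over nuclei. With nuclei thinned to 2000 UMIs there was 1 higher in granule-like, 1 in immature neuron-like and 1 in subicular or cortical-like nuclei, 1 lower in CA3-like, and 0 higher in inhibitory neuron-like and in oligodendrocyte-like nuclei. In the inhibitory pool 0 were higher and 1 lower with doublets kept, and 0 higher with the mean over nuclei. At leiden resolution 0.5 there was 1 lower in oligodendrocyte precursor-like and 4 higher in oligodendrocyte-like nuclei, and the last class had 1 higher with median-of-ratios scaling and 1 with 2000 UMIs asked of every nucleus. With doublets kept no CA1-like class formed.

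The 31 single ratios past the limit gave 250 values under the alternatives. None of these changed sign, but 35 fell short of the limit, in 17 of the 31 ratios. Leaving out the filter and the smaller pseudocount, as stated above, neither change a sign nor bring a ratio under the limit. Their values are among the 250 and are no check of stability. Each ratio in a numbered cluster had 6 settings, none with a changed clustering. The class at the top was followed among the named classes only, with the numbered clusters left out. For the 23 genes with the same such class in both libraries this gave 158 values. In 22 another class led, mostly for Cacna1c, Cacna1i, Cacnb1, Scn1a and Nalcn. In the levels given above, the leading classes of Cacna1i, Scn1a and Nalcn had overlapping intervals, and the order of those of Cacna1c changed between libraries. The highest Cacnb1 level, in CA1-like neurons, overlapped that of cluster 15 in AAV-TAU. A cluster number does not name the same nuclei once the clustering is changed. For Cacna1c, Cacna1i and Nalcn, led in AAV-TAU by a numbered cluster, these values are therefore no check of that cluster's place. No paired analysis was possible because each group has 1 library. Depth differs between the libraries: thinning left out 1615 AAV-TAU and 91 AAV-STOP nuclei, of which 446 AAV-TAU and 32 AAV-STOP nuclei were oligodendrocyte-like.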

Other observations

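Genes that work with the channels had class patterns of their own, read here over the classes in which each passed the filter. Cacng4, a TARP that also travels with AMPA receptors, passed the filter in oligodendrocyte precursor-like nuclei with 454 CPM in AAV-TAU and 425 CPM in AAV-STOP and in Sst-like neurons with 55.0 CPM in AAV-TAU and 49.7 CPM in AAV-STOP. Its relative Cacng2, or stargazin, was highest in Pvalb-like neurons, with 160.2 CPM in AAV-TAU and 159 CPM in AAV-STOP, against 31.1 CPM in AAV-TAU and 25.4 CPM in AAV-STOP in CA1-like neurons, while Cacng8 was highest in CA1-like neurons with 132 CPM in AAV-TAU and 133 CPM in AAV-STOP.

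The calcium release channel gene Ryr2 had 1758 CPM in AAV-TAU and 1774 CPM in AAV-STOP in granule-like and 989 CPM in AAV-TAU and 977 CPM in AAV-STOP in CA1-like neurons. Ryr3 had 413 CPM in AAV-TAU and 404 CPM in AAV-STOP in granule-like and 1566 CPM in AAV-TAU and 1635 CPM in AAV-STOP in CA1-like neurons, so both classes stood in the opposite order. Rims1, which ties calcium channels to the release site, was highest in Lamp5-like neurons, with 2189.7 CPM in AAV-TAU and 2508 CPM in AAV-STOP, the class that also led in Cacna2d1. Unc80, a subunit of the Nalcn complex, had 238 CPM in AAV-TAU and 264 CPM in AAV-STOP in oligodendrocyte precursor-like nuclei and 519 CPM in AAV-TAU and 543 CPM in AAV-STOP in granule-like neurons. Fam155a, another subunit of that complex, had 1763 CPM in AAV-TAU and 1848 CPM in AAV-STOP in oligodendrocyte precursor-like nuclei and 2547 CPM in AAV-TAU and 2731 CPM in AAV-STOP in granule-like neurons.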
